A study of Mus musculus with 4 samples.

Results

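H3K27ac was examined at 9 mouse genes through which endothelial cells act on blood clotting and clot removal: *F8*, *Vwf*, *Thbd*, *Procr*, *Pros1*, *Tfpi*, *F3*, *Plat*, and *Plau*. They were chosen by name for their known function and are 9 of 21883 protein-coding genes in the RefSeq annotation of GRCm38 (mm10). Each gene was described by the H3K27ac peaks in its body and in the 10 kb on each side. Regions that overlapped a gene end or lay within 1 kb of either end are called gene-end regions, and all others are called distal. A region was shared when peaks of both libraries overlapped by at least 1 bp.

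Clotting is started by tissue factor, amplified by a cascade in which factor VIII is a cofactor, and supported by von Willebrand factor, which tethers platelets and carries factor VIII. The endothelium restrains it through tissue factor pathway inhibitor and through thrombomodulin, the endothelial protein C receptor, and protein S, which together turn thrombin into an activator of protein C and assist the activated protein. It also removes fibrin by releasing plasminogen activators. Liver sinusoidal endothelial cells (LSECs), the fenestrated lining of the liver's capillaries, are a main source of factor VIII in the body.

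The data were ChIP-Seq peak lists from isolated mouse LSECs of 1 condition, in 2 libraries named replicates 2 and 3 after their library labels. H3K27ac, acetylation of lysine on the tail of histone H3, is found at active promoters and enhancers. Each library had an input library of the same number, not analysed here. The labels give no genotype, treatment, or age of the mice. In the study's methods, LSECs were isolated with anti-CD146 beads and briefly cultured, and mice carrying *Col4a1*fl/wt, with or without *Cdh5*CreERT2, and mice carrying dCas9-KRAB with *Cdh5*CreERT2 are described. Which of them gave the cells for these libraries, and whether cells were pooled, are not given in the sources used here. The labels describe sonicated chromatin and a ligation-based library kit, and the methods describe a tagmentation-assisted ChIP-Seq, so the preparation is not settled.

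The list of replicate 2 held 26975 peaks and that of replicate 3 held 64498. Fold enrichment is the peak caller's ratio of a peak's signal to its background. Over the whole list its median was 9.76 for replicate 2 and 8.89 for replicate 3. The longer list of replicate 3 therefore included many more weak peaks, although over the 24199 shared regions its fold enrichment was higher by a median factor of 2.47. For this reason a peak is also given by its percentile. This is its rank by fold enrichment, from weakest to strongest, as a percent of its own list, with ties at their mean rank. The percentile is not on the same scale in both lists. Over all shared regions its median was 53.8 in replicate 2 and 81.0 in replicate 3. A higher percentile in replicate 3 is therefore usual for a shared region, and percentiles are to be read within 1 library. Read counts are not part of the lists, and sequencing depth is therefore unknown. With 2 libraries of 1 condition no test was made, and the spread is given as the value in each library.

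The cell type was checked by the gene ends of marker genes. Of 15 LSEC markers, 10 had a shared gene-end region, against 44.1% of all protein-coding genes, and all 15 had a gene-end peak in replicate 3, against 53.9%. Their summed strongest fold enrichment was 118 in replicate 2 and 313 in replicate 3, and the highest was *Kdr*, a VEGF receptor of endothelium in general, at 22.4 and 60.3. The sinusoidal markers *Stab2* (5.86), *Clec4g* (4.56), and *Mrc1* (4.15) had gene-end peaks in replicate 3 only, all of them weak. *Stab1* (8.81 and 23.3) and *Lyve1* (12.9 and 39.5) had shared gene-end regions. The number of shared distal regions was 8 at *Stab2*, 1 at *Clec4g*, and 4 at *Mrc1*. All 15 LSEC markers had a shared distal region, against 39.3% of all protein-coding genes. *Mcam*, which encodes the CD146 used for isolation, had a gene-end peak in replicate 3 only, at 11.9. Of 7 markers of large-vessel endothelium, 5 had a shared gene-end region, led by *Efnb2* at 20.3 and 48.9, with sums of 43.4 and 143, and *Gja5* and *Ltbp4* had no gene-end peak in either library. In replicate 2, 3 of the 7 had a gene-end peak, since the replicate 2 peaks in the shared regions of *Cd34* and *Sox17* were themselves more than 1 kb from the gene. All 7 had a shared distal region. These counts do not tell LSECs from other endothelium.

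Markers of other liver and blood cells were counted in the same way. Of 10 hepatocyte markers, 2 had a shared gene-end region, *Apoa2* at 39.1 and 86.5 and *Trf* at 15.9 and 78.8, and the sums were 54.9 and 188. The *Apoa2* region also lies at the end of *Tomm40l*, and *Alb* and *Ttr* had no gene-end peak in either library, although *Alb* had 1 shared distal region. *Apoa1* and *Apob* had gene-end peaks in replicate 3 only, each at 11.4. None of 9 stellate cell markers had a shared gene-end region, and the sums were 0 and 12, the latter from *Col1a1* alone. Of 8 Kupffer cell markers, *Spi1* (12.8 and 52.1) and *Cd68* (9.37 and 18.4, at the end of *Eif4a1*) had 1 each, with sums of 22.2 and 70.5, whereas *Clec4f*, *Vsig4*, *Timd4*, and *Cd5l* had no gene-end peak. Of 7 megakaryocyte and platelet markers, which bear on *Vwf* since these cells also make it, *Pf4* alone had a shared gene-end region, at 5.42 and 5.54. *Itga2b* and *Gp1ba* had no gene-end peak, and the sums of this list were 5.42 and 9.67. None of 5 cholangiocyte markers had a shared gene-end region (sums 0 and 5.86, from *Epcam*). Of 7 lymphocyte markers, *Cd79a* had 1, at the end of *Arhgef1* (10.2 and 13.3; sums 10.2 and 25.1). A shared distal region was present at 4 of 10 hepatocyte markers, 1 of 9 stellate cell markers, and 2 of 8 Kupffer cell markers. The count was 4 of 7 for megakaryocyte and platelet, 1 of 5 for cholangiocyte, and 3 of 7 for lymphocyte markers. Over all protein-coding genes the share was 39.3%. The part of other cells in the peaks of the 9 genes was not tested.

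H3K27ac at gene ends was compared with that over all protein-coding genes. A shared gene-end region was present at 6 of 9, namely *F8*, *Thbd*, *Procr*, *Pros1*, *F3*, and *Plat*, against 44.1% of all protein-coding genes. The region of *F8* also overlaps the start of the coding gene *Fundc2*. With regions at ends of other coding genes left out, an alternative chosen after seeing the data, 5 of 9 remained, against 31.1% of all genes. When 50% of each peak had to overlap, the count was 3 of 9 (*F8*, *Procr*, and *Plat*), against 22.4% of all genes under the same rule. A gene-end peak was present at the same 6 genes in replicate 2, against 43.4% of genes, and at all 9 in replicate 3, against 53.9%. *Vwf*, *Tfpi*, and *Plau* thus had a gene-end peak in replicate 3 only. Shared distal regions were present at 8 of 9, all but *Plat*, against 39.3% of genes. With no flank, the count was 4 of 9, against 19.4% of all genes. A distal peak was present at 8 of 9 in replicate 2, against 40.1%, and at all 9 in replicate 3, against 60.6%. With 9 genes these counts are a description, and no share was tested against another.

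The 9 genes held 67 regions, of which 29 were shared, 37 were found in replicate 3 only, and 1 in replicate 2 only. The shared portion was 43.3%, against 37.4% of all 64629 merged regions. Of the shared regions, 8 were gene-end regions and 21 were distal. The distal regions comprised 10 in a gene body and 11 in a flank, and 3 of the 21 lay within 1 kb of an end of another coding gene. Shared gene-end regions had a median fold enrichment of 16.6 (replicate 2) and 36.5 (replicate 3) and a median width of 1138 bp. Shared distal regions had medians of 10.1 and 18.0 and a width of 555 bp. By these medians the gene-end regions as a group were wider, and stronger in each library, than the distal ones. Within single genes the order was not always the same, as given below. Over all protein-coding genes with a gene-end peak, the strongest such peak had a median fold enrichment of 16.3 (replicate 2) and 38.7 (replicate 3). Its median percentile was 74.96 and 87.58. The median fold enrichment was 19.3 over the 6 of the 9 genes with a gene-end peak in replicate 2 and 35.2 over all 9 in replicate 3. It was above the median of all genes in the former library and below it in the latter. *Procr*, *Plat*, and *Thbd* stood above the median of all genes in both libraries, and *F8* and *F3* stood below it in both. *Pros1* was above it in replicate 2 only. *Vwf*, *Tfpi*, and *Plau* were below it in replicate 3, the only library with a gene-end peak there.

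Both libraries ranked the shared regions of these genes in a similar order (Spearman's rho 0.923 across 29 regions, which come from the same pair of libraries and are not independent). Over all 24199 shared regions rho was 0.843. Fold enrichment was higher in replicate 3 by a median factor of 1.92, with a range from 0.800 to 3.22. Regions found in replicate 3 only were weaker, with a median of 6.19 against 20.9 for shared regions in the same library.

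**Figure D1:**
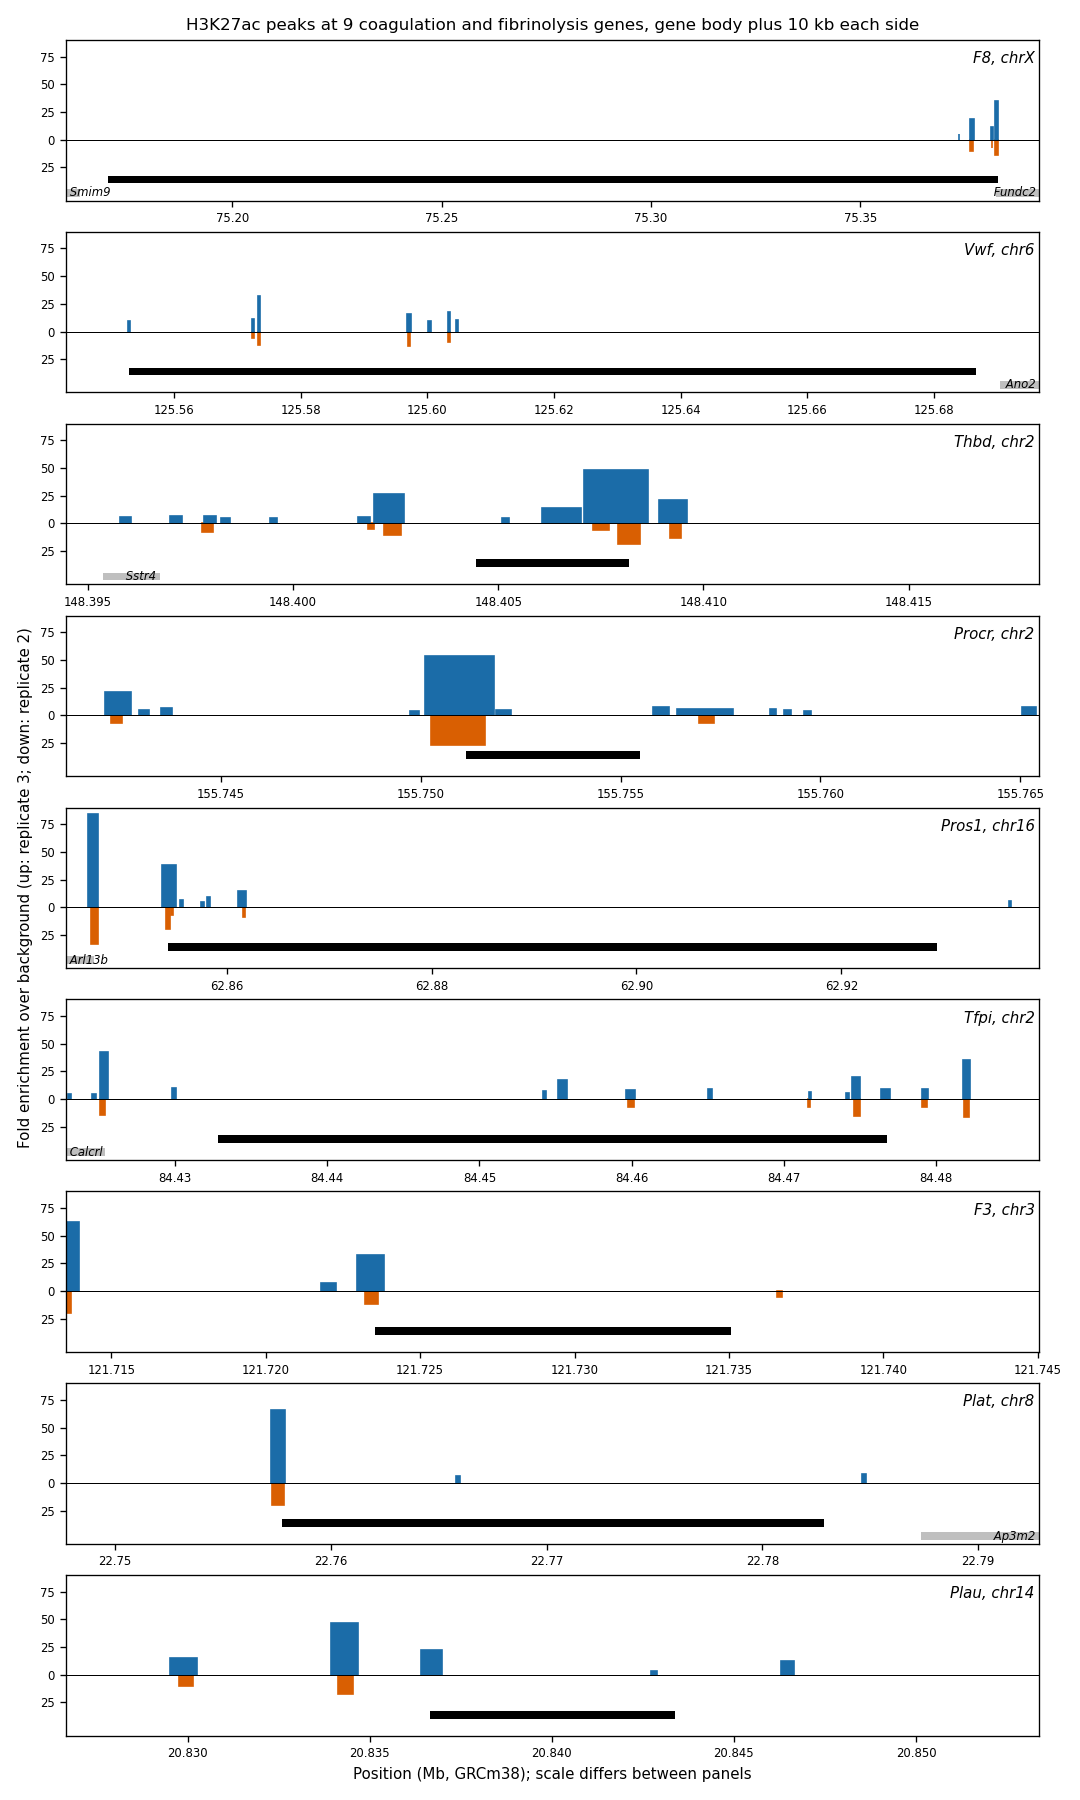
H3K27ac peaks at each of the 9 genes, with position in Mb on the horizontal axis (scale differs between panels) and fold enrichment on the vertical axis, replicate 3 drawn upward in blue and replicate 2 downward in orange, the gene as a black bar and neighbouring coding genes as grey bars. Peaks of both libraries stand at an end of *Procr* (27.1 and 54.0) and *Plat* (20.3 and 65.5), whereas those of *Vwf* lie inside the gene.

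Among the procoagulant genes, *F8*, which encodes the cofactor factor VIII, spans chrX:75170344-75382738. Its shared gene-end region, chrX:75382137-75382923, was enriched 14.2-fold in replicate 2 (percentile 69.2) and 35.2-fold in replicate 3 (85.9). This region also overlaps the start of *Fundc2*, a mitochondrial protein gene, so it cannot be assigned to either gene from these data. The RefSeq start of *F8* used for its promoter sequence lies inside the annotated gene, at 75380041, and the nearest peaks were 1266 bp away in replicate 2 and 1222 bp away in replicate 3. A second shared region, chrX:75381263-75381546, lies within 1 kb of the *Fundc2* end as well, at 7.46 and 11.7. Away from *Fundc2*, a single shared region was found at chrX:75376145-75377134, with 10.2 in replicate 2 and 18.9 in replicate 3. All peaks of this gene of 212 kb thus lay near its upper end, and the long remainder of the body had none.

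*Vwf*, which encodes von Willebrand factor and is expressed more in large vessels than in sinusoids, spans chr6:125552948-125686679. Its lower end carried a peak in replicate 3 only, chr6:125552767-125553043, at 9.12 (percentile 50.7). Among all replicate 3 peaks within 10% of that fold enrichment, 17.9% of 5297 had a replicate 2 peak, so the absence in replicate 2 was the usual outcome at this strength. In contrast, 4 distal regions inside the gene, between 125572285 and 125603592, were shared. The strongest in replicate 3 was chr6:125573188-125573622, with 32.5 there and 12.2 in replicate 2. The strongest of the latter library was chr6:125596760-125597458, at 12.9, against 16.3 in replicate 3. H3K27ac at *Vwf* was therefore stronger within the gene than at its ends in both libraries.

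*F3*, which encodes tissue factor, the initiator of clotting that resting endothelium shows little of, spans chr3:121723537-121735052. The shared region over its start, chr3:121722961-121723846, was enriched 11.5-fold in replicate 2 (percentile 58.6) and 32.2 in replicate 3 (84.4). A stronger shared region lay 9.60 kb below the gene, chr3:121712935-121713941, at 19.9 (83.0) and 62.5 (94.5). It reaches past the outer border of the flank and has no coding gene end within 1 kb. The single region of replicate 2 alone among the 9 genes was also here, 1.51 kb above the gene, at 5.42. *F3* was thus marked at its start, more weakly than at the upstream region, in both libraries.

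Among the anticoagulant genes, *Tfpi*, which encodes the inhibitor of tissue factor with factor VIIa, spans chr2:84432855-84476775. Its upper end, the start at 84476759, carried a peak in replicate 3 only, chr2:84476359-84476939, at 9.44 (percentile 51.9). Of 5125 replicate 3 peaks of like fold enrichment, 19.9% had a replicate 2 peak. RefSeq gives another start at 84474174, over which replicate 3 alone had a weak peak (chr2:84474100-84474275, at 5.21). A shared region lay 286 bp from that start, chr2:84474460-84475014, at 15.6 in replicate 2 and 20.3 in replicate 3. This region is distal by the rule, since it is 1.76 kb from the gene end.

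*Tfpi* had 6 shared distal regions against 4 at *Vwf*, an order that was lost with the same number of strongest peaks from each list or with no flank (3 against 4 in each case). The strongest in replicate 2, chr2:84481788-84482226, lay 5.01 kb above the gene at 16.5 and 35.5. The strongest in replicate 3, in the flank below the gene, chr2:84425055-84425593 at 14.8 and 42.3, lies at the end of *Calcrl*, a receptor gene for adrenomedullin. Inside the gene, chr2:84455138-84455738 reached 17.4 in replicate 3 with no peak in replicate 2. At that strength 70.0% of 3056 replicate 3 peaks had a replicate 2 peak, so this absence was less common than that at the gene end.

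*Thbd*, which encodes thrombomodulin, the receptor that redirects thrombin to protein C, spans chr2:148404471-148408188. The shared region over its upper end, chr2:148407102-148408643, was enriched 18.9-fold in replicate 2 (percentile 80.6) and 47.9 in replicate 3 (90.9). Another shared gene-end region 0.739 kb above the gene reached 12.9 and 21.3. On the lower side, chr2:148401983-148402716 was the strongest distal region, at 10.4 and 26.3. Shared regions covered 29.2% of the body of this short gene, at percentile 98.2 of all protein-coding genes and 95.1 of 4159 genes of similar length (0.5 to 2 times its own). The locus held 5 shared regions and 6 in replicate 3 only. Of the shared regions, 2 lay at the upper end and the other 3 in the flank below the gene, as did 4 of the 6 in replicate 3 only. Of these 4, 2 lay within 1 kb of an end of *Sstr4*, a somatostatin receptor gene. With the same number of strongest peaks taken from each list, the number of shared regions was 3, and it was 2 when 50% of each peak had to overlap.

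*Procr*, which encodes the endothelial protein C receptor, spans chr2:155751125-155755478. The shared region over its start, chr2:155750115-155751831, was the strongest gene-end region of the 9 genes in replicate 2, at 27.1 (percentile 92.4), and second in replicate 3, at 54.0 (92.6). It was 1717 bp wide, the widest of the 29 shared regions. A weak shared region near the upper end, chr2:155756408-155757804, had 6.78 in replicate 2 and 5.42 in replicate 3, and the peak of replicate 2 in it was itself more than 1 kb from the gene. The only shared distal region, 8.37 kb below the gene, had 7.20 and 20.9. In replicate 3 the locus held 12 peaks, of which 9 had no peak in replicate 2, all of them at 7.81 or below. Shared regions covered 16.2% of the body, at percentile 95.5 of all genes and 86.9 of 4583 genes of similar length.

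*Pros1*, which encodes protein S, the cofactor of activated protein C, spans chr16:62854307-62929346. Its start carried a shared region, chr16:62853655-62855044, at 19.7 in replicate 2 (percentile 82.5) and 37.8 in replicate 3 (87.1). The strongest region within its 10 kb flanks, chr16:62846461-62847451 at 33.2 and 84.1, lies at the end of *Arl13b*, a ciliary GTPase gene, and cannot be told apart from the promoter of that gene. A shared region inside the gene, chr16:62861053-62861835, had 8.59 and 15.0. With the region at the end of *Arl13b* set aside, *Pros1* was marked most strongly at its start.

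Among the fibrinolysis genes, *Plat*, which encodes tissue plasminogen activator, spans chr8:22757722-22782848. Its shared region at the lower end, chr8:22757215-22757865, was enriched 20.3-fold in replicate 2 (percentile 83.8) and 65.5 in replicate 3 (95.1), the highest gene-end value of the 9 genes in replicate 3. No other shared region was found in the gene or its flanks. Replicate 3 alone had distal peaks at 5.86 and 7.81. Within these borders, H3K27ac shared by both libraries at *Plat* was thus found in a single region.

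*Plau*, which encodes urokinase, the other plasminogen activator, spans chr14:20836662-20843388 and had no shared gene-end region under the 1 kb rule. With a gene-end window of 2.5 kb, *Plau* had a shared gene-end region, as *Plat* did. Its lower end had a peak in replicate 3 only, chr14:20836411-20836991, at 22.2 (percentile 77.2). Of 2675 replicate 3 peaks of like fold enrichment, 86.6% had a replicate 2 peak, so the absence in replicate 2 was uncommon at this strength. A shared region 1.99 kb below the gene, chr14:20833928-20834674, had 16.9 in replicate 2 (76.6) and 46.9 in replicate 3 (90.6). A second shared region 6.40 kb below had 10.1 and 14.7. The shared regions of *Plau* were all outside the gene, and none of its body was covered. In the other 8 genes the covered share of the body ran from 0.573% in *Plat* to 29.2% in *Thbd*. The median over all protein-coding genes was 0.0906%. Among genes of similar length, *Plat* stood at percentile 40.9 of 7800, against 53.5 of all genes. For *F3* the percentile was 57.8 of 7146, against 72.1. It was higher among genes of similar length for *F8* (67.5 against 56.5), *Vwf* (68.6 against 60.8), *Pros1* (74.3 against 67.2), and *Tfpi* (80.2 against 74.4).

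The order of the strongest gene-end peaks was *Procr*, *Plat*, *Pros1*, *Thbd*, *F8*, and *F3* in replicate 2 and *Plat*, *Procr*, *Thbd*, *Pros1*, *F8*, *F3*, *Plau*, *Tfpi*, and *Vwf* in replicate 3. *Procr* and *Plat* exchanged places between libraries, as did *Pros1* and *Thbd*, so the order within each pair was not settled. In both libraries these 4 genes stood above *F8*, and *F8* above *F3*, with the value of *F8* taken from the region that overlaps the start of *Fundc2*. In *Vwf*, *Pros1*, *Tfpi*, *F3*, and *Plau*, 5 of 9 genes, the strongest peak was distal in each library. That of *Pros1* is the region at the end of *Arl13b*, and without it the strongest peak of *Pros1* was at its start, which leaves 4 of 9. Among all protein-coding genes with any peak, the strongest peak was distal in 43.4% in replicate 2 and 46.2% in replicate 3. These shares include regions at ends of other coding genes, so they compare with the 5 of 9. No such share is given here for the 4 of 9.

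**Figure D2:**
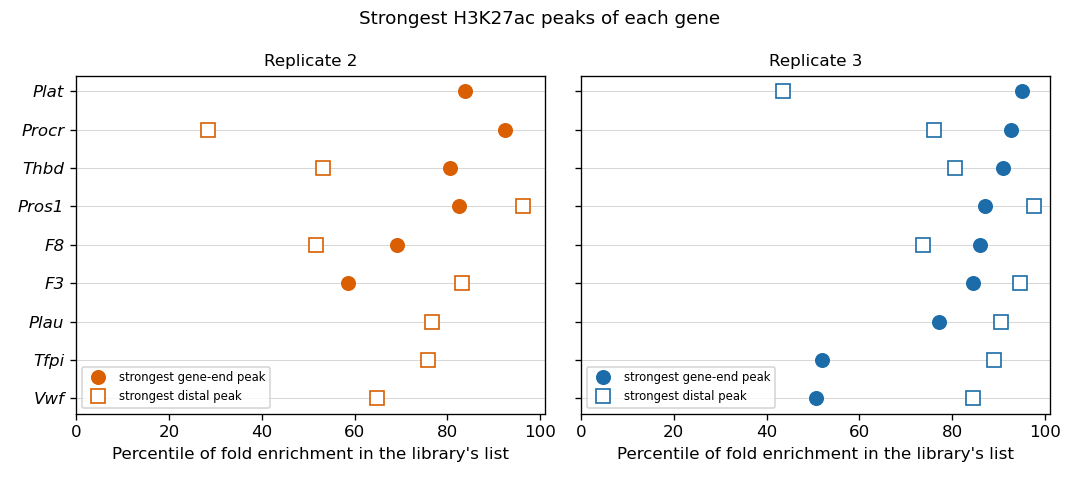
Percentile of fold enrichment, within each library's own list, of the strongest gene-end peak (filled circle) and strongest distal peak (open square) of each gene, with replicate 2 at left and replicate 3 at right. Filled circles are missing at *Plau*, *Tfpi*, and *Vwf*, and the open square at *Plat*, in replicate 2, which had no such peak there, and the open square of *Pros1* lies at 96.2 and 97.5.

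Promoter sequences were taken from RefSeq (GRCm38.p6), which gave 6 windows before the starts of 5 of the 9 genes, since *Tfpi* has a pair. *Vwf*, *Thbd*, *Plat*, and *Plau* are named only. The 250 bases before the start are shown for *Procr* and *Pros1*, whose gene-end peaks were the strongest in both libraries among the genes with a window, and for *Tfpi* and *F3*, whose gene-end peaks were absent or weakest. Peaks covered all 250 bases of the windows of *Procr*, *Pros1*, and *F3* in both libraries. In *Tfpi*, no base lay in a replicate 2 peak, and 180 and 101 bases of its windows lay in replicate 3 peaks. Capitals mark matches to the motifs searched on both strands, and a match is a description of letters, not a bound site.
Procr, chr2:155750967-155751216, plus strand: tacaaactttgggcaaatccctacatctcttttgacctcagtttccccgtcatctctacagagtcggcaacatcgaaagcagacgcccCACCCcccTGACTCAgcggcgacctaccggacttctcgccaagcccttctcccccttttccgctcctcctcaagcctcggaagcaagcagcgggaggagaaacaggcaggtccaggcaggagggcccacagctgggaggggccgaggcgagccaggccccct
Pros1, chr16:62854057-62854306, plus strand: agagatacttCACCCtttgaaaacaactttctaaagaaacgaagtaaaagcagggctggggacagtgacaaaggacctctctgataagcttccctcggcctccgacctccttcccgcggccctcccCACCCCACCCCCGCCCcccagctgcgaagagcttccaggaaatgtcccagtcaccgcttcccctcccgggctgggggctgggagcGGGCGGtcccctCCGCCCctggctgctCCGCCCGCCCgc
F3, chr3:121723287-121723536, plus strand: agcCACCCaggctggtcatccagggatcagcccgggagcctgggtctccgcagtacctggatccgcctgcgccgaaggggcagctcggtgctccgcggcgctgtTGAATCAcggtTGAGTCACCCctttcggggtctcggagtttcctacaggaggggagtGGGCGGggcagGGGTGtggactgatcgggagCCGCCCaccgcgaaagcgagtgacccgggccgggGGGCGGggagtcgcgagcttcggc
Tfpi upper start, chr2:84476760-84477009, minus strand: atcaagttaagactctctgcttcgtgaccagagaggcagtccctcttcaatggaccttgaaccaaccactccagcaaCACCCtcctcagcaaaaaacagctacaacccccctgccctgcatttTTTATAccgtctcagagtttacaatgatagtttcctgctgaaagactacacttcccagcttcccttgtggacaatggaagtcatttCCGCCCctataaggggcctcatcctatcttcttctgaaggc
Tfpi lower start, chr2:84474175-84474424, minus strand: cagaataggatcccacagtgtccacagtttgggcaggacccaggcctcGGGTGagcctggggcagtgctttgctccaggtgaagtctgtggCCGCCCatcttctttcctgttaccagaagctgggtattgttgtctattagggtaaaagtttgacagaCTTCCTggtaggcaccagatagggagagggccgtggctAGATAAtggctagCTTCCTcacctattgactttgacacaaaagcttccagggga

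The windows differed in base composition. The GC content was 61.6% in *Procr*, 64.4% in *Pros1*, 70.0% in *F3*, 48.4% in the upper and 52.8% in the lower window of *Tfpi*, and 42.8% in *F8*, against a median of 55.6% over 21262 windows of protein-coding genes. The ratio of observed to expected CpG was 0.570, 0.615, 0.803, 0.229, 0.174, and 0.175 in the same order, against a median of 0.530. The genes whose window lay inside peaks of both libraries were thus those with the higher GC and CpG content.

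The motif GGGCGG, the GC box, occurred 5 times in *Pros1*, 3 times in *F3*, and once in each *Tfpi* window, and was in 42.6% of all windows. The motif TGANTCA, which is the AP-1 site where N is C or G, was searched with any base at N and was in 6.13% of windows. It occurred once in *Procr* (TGACTCA) and 2 times in *F3* (TGAATCA and TGAGTCA). The motif CACCC, read by Krüppel-like factors, was in every window but that of *F8*, and in 54.2% of all windows. The motif TATAAA, the TATA box, occurred in the upper *Tfpi* window and in 11.6% of windows. The lower *Tfpi* window held a match to AGATAA, which was in 8.81% of windows. It also held 2 matches to the ETS-type motif AGGAAG, which was in 28.5%. Some matches overlap: in *F3* the later TGANTCA shares bases with CACCC, and in *Pros1* the last pair of GGGCGG matches overlap each other. The motif CCGGAA (in 15.0% of windows), the motif GTAAACA (2.62%), the motif TGACGTCA (1.92%), and the motif GGGANTTCC (1.58%) were in none of the 6 windows.

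Other genes of the pathway were counted from a list of 35 vessel-wall and receptor genes and a list of 25 genes whose products are made mainly by hepatocytes. A shared gene-end region was present at 20 of 35 vessel-wall genes (57.1%) and at 2 of 25 hepatocyte-made genes (8.0%), against 44.1% of all protein-coding genes. When 50% of each peak had to overlap, the count of vessel-wall genes was 13, against 22.4% of all genes. With the RefSeq start as the only gene end the count of hepatocyte-made genes was 0, against 44.9% of all genes. With regions at ends of other coding genes left out, an alternative chosen after seeing the data, it was 1, against 31.1%. The summed strongest fold enrichment was 334 in replicate 2 and 1001 in replicate 3 over the former list, and 26.4 and 102 over the latter.

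Vessel-wall genes with a shared gene-end region were ordered by the lower of their percentiles in the libraries. By this measure the first was *Klf2*, a flow-responsive transcription factor known to raise *Thbd*, at 44.7 in replicate 2 and 113 in replicate 3. Its relative *Klf4* followed at 31.7 and 82.7. *Lman1* (27.1 and 107) and *Mcfd2* (24.4 and 70.8), whose products form the receptor that carries factors V and VIII out of the endoplasmic reticulum, were both among the first 6. The other two were *Anxa5* (25.8 and 63.8), which encodes the anticoagulant annexin A5, and *Entpd1* (25.8 and 65.2), which encodes the ADP-degrading CD39. Their regions also lie at the ends of *1810062G17Rik* and *Tctn3*. By fold enrichment in replicate 3 the order differs, since *F2r*, which encodes a thrombin receptor, had 83.0 there and 17.6 in replicate 2. In replicate 3 only, weak gene-end peaks were found at *F2rl1* (4.88), *Stab2* (5.86), *Clec4g* (4.56), and *Nt5e* (6.19). *Stab2* encodes an LSEC scavenger receptor that clears von Willebrand factor from blood.

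Of the 25 hepatocyte-made genes, 22 had no gene-end peak in either library. The exceptions were *F12* (8.81 and 33.3), which encodes factor XII and whose region is not at its RefSeq start, and *Cpb2* (17.6 and 63.2), an inhibitor of fibrinolysis whose region lies at the end of *Zc3h13*. *Proc*, which encodes protein C, had a gene-end peak in replicate 3 only, at 5.49.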

How the data were processed

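H3K27ac ChIP-Seq peaks of isolated mouse LSECs were analysed in 2 libraries of 1 condition, and the 2 input libraries were not analysed here. The authors called peaks per library and deposited 1 list for each. The deposited ratio is the fold enrichment of a peak over the caller's background. The authors' lists also give the −log10 of the p-value and of the q-value, and the deposited score is the latter times 10, cut to a whole number. The submitters' processing notes name cutadapt 0.4.4, BWA 0.7.17, Picard 1.67, MACS2 2.0.10, and bedtools 2.27.1 and the build mm10. Their roles, and whether the inputs entered the calls, are not given in the sources used here. The lists hold no read counts, so depth is unknown and no interval was computed.

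Overlapping peaks of both libraries were merged into regions, assigned to genes of RefSeq GRCm38.p6, and ranked by percentile of fold enrichment within each list. Exonic and intronic positions were not distinguished. The named genes were the 9 genes and, from each pathway list, up to 6 genes with the highest shared gene-end regions by the lower of their library percentiles and up to 4 with a peak in 1 library only. Coding genes whose end lay within 1 kb of a distal region were also named. Other genes, namely the markers, *F2r*, *Fundc2* where it overlaps a gene-end region, and coding genes at the gene-end regions of list genes, were named after their values were seen. The members and lists were chosen with earlier results of these data known. Alternatives changed the q-value threshold, list length, overlap, gene-end window, gene end used, flank, joining of peaks, attribution to neighbouring genes, and the library left out. Region assignment was tested on simulated peaks. Python 3.11.15, numpy 2.4.6, pandas 2.3.3, and matplotlib 3.10.9 were used.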

Additional observations from a re-analysis of the deposited data

How the results depend on the processing

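No test was made, so the alternatives were compared by their values, and a count was taken as moved when it changed by more than 1.5 times. Of 72 alternative counts over the members and the pathway lists, 61 stayed within that limit. Of 108 counts of shared regions at single members 24 moved, of 18 percentiles by covered share 5 moved by 10 points or more, and of 30 percentiles of gene-end peaks none did. The covered-share percentiles that moved were those of *F8*, *F3*, and *Plat*. When 50% of each peak had to overlap, the members with a shared gene-end region fell from 6 to 3 (*F8*, *Procr*, and *Plat*), the shared gene-end regions from 8 to 3, and the vessel-wall genes from 20 to 13. With a gene-end window of 2.5 kb, the gene-end regions rose to 14, and *Tfpi* and *Plau* joined the members with a shared gene-end region. The share of all genes under this window is not given here. With no flank, 4 members in place of 8 had a shared distal region, and the distal regions fell from 21 to 10. With a flank of 50 kb they rose to 45. With the RefSeq start as the only gene end, either end was kept for genes without an entry such as *Thbd* and *Plat*. The hepatocyte-made genes then fell from 2 to 0, and *F8* was replaced by *Tfpi* among the 6 members. The share of all genes under this rule was 44.9%. Leaving out all regions at ends of other coding genes, an alternative chosen after seeing the data, left 1 hepatocyte-made gene and 5 members, without *F8*. Under this rule 31.1% of all genes had a shared gene-end region. Leaving out either library gave 6 to 9 members with a gene-end region, 8 to 9 with a distal region, 9 to 15 gene-end regions, 23 to 51 distal regions, 21 to 25 vessel-wall genes, and 2 to 3 hepatocyte-made genes. The upper values come from replicate 3 alone, whose list is longer. Apart from the construction of each alternative, the cause was not tested. No paired analysis was possible because there is 1 condition and no comparison between groups. The unknown depth limits what an absent peak shows.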

Other observations

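Beyond the flanks described above, from 10 to 50 kb of the 9 genes, 24 further shared regions were found, of which 16 lay away from the ends of other coding genes. *Tfpi* had 7 of them, and 5 of these lay in the body of *Calcrl*. The strongest in both libraries, chr2:84404618-84405327, was 27.5 kb below *Tfpi* and was enriched 28.7-fold in replicate 2 and 38.1-fold in replicate 3. At *Vwf*, a region 36.5 kb below the gene, chr6:125515507-125516460, had 15.2 and 33.5, which exceeds every region within the gene in both libraries. At *Thbd*, the strongest outer region, chr2:148440455-148444064, reached 21.6 and 66.4 and lies at the end of *Cd93*, an endothelial C-type lectin gene of the same family. At *Plat*, a region 22.6 kb above the gene, chr8:22805418-22806068, lies in the body of *Ap3m2* and had 17.6 and 72.9. The latter was the highest replicate 3 value of the 24 and above that of the *Plat* gene end (65.5). In replicate 2 the order was the reverse, with 20.3 at the gene end. *Pros1* and *F3* had none.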
